A study of Mus musculus with 6 samples.

Results

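The genes described here are 10 enzymes of glycolysis, taken by gene symbol from a table of 28752 genes: the enolases Eno1, Eno2 and Eno3, the hexokinases Hk1 and Hk2, the phosphofructokinases Pfkl and Pfkp, and Pgk1, Pkm and Ldha. All 10 symbols were found, and all 10 were among the 18348 genes with enough counts to be tested. RNA sequencing compared 3 vector samples with 3 samples overexpressing circEZH2_005, a circular RNA made from Ezh2, in intestinal crypt stem cells. The cells were Lgr5+ intestinal stem cells (ISCs) of Lgr5-GFP mice, labelled as wild type, which by the study's methods were sorted for GFP by flow cytometry and then grown as organoids. By those methods circEZH2_005 was delivered by adenovirus, and the labels give 72 h of infection for both groups, vector included. Both groups went through hypoxia/reoxygenation (H/R), with 4 h at 2% O2 and 5% CO2, so that every value below is a level after H/R, and no comparison with normal oxygen was made here. The study's methods describe its C57BL/6 mice as young adult males, without a separate age for the Lgr5-GFP mice. They speak of biological replicates in general terms but do not say which animals or cultures these 6 samples came from, and p-values measure the spread between these samples only.

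Glycolysis splits glucose into pyruvate and yields ATP without oxygen. Hexokinase traps glucose in the cell as glucose-6-phosphate, phosphofructokinase 1 commits it to the pathway, phosphoglycerate kinase and pyruvate kinase make ATP, and lactate dehydrogenase turns pyruvate into lactate and restores the NAD+ that the pathway uses. Enolase stands between them and turns 2-phosphoglycerate into phosphoenolpyruvate. Mammals have separate enolase genes: Eno1 encodes the alpha subunit of most tissues, Eno2 the gamma subunit of neurons and neuroendocrine cells, and Eno3 the beta subunit known best from skeletal and heart muscle. Low oxygen stabilizes hypoxia-inducible factor 1 (HIF-1), and Eno1, Hk2, Pgk1, Pkm and Ldha are well-known targets of it.

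The coding sequences of the 3 enolases differ at many bases, which is what lets short reads tell them apart. In GENCODE M21 (GRCm38) each has 1302 coding bases, and Eno3 is identical to Eno1 at 76.7% of them, Eno3 to Eno2 at 76.7%, and Eno1 to Eno2 at 75.1%. The first 60 coding bases are shown to make this visible, with capitals at the 23 positions where the 3 genes do not all hold the same base. They lie within 1 exon each, at chr4:150239482-150239541 (plus strand) for Eno1, chr6:124768263-124768322 (minus strand) for Eno2 and chr11:70657874-70657933 (plus strand) for Eno3.
Eno1: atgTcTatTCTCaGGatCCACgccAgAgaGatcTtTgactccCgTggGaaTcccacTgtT
Eno2: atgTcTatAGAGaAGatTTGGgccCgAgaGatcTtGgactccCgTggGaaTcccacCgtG
Eno3: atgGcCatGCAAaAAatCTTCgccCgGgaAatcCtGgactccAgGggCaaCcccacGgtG
Of the stretches of 100 bases in the longest coding transcript, 0 of 1465 in Eno3 and 0 of 2696 in Eno2 occur in a transcript of another gene. In Eno1 59.0% of stretches do, and Eno1b, a near copy with 99.4% of coding bases identical, holds 58.6%. How the counts were divided between Eno1 and Eno1b is therefore uncertain, and that uncertainty does not extend to the stretches of Eno3 and Eno2. Among the other members 67.0% of stretches are shared in Pgk1 (with Pgk1-rs7), 9.82% in Pkm and 1.28% in Ldha, and 0 in Hk1, Hk2, Pfkl and Pfkp.

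Eno3 (ENSMUSG00000060600) lies on chromosome 11 from 70657202 to 70662513 (plus strand), Eno1 (ENSMUSG00000063524) on chromosome 4 from 150236721 to 150248879 (plus strand) and Eno2 (ENSMUSG00000004267) on chromosome 6 from 124760053 to 124769621 (minus strand), all on GRCm38 as the table gives them. No annotated gene overlaps Eno1, Eno2, Eno3, Pfkl, Pgk1 or Ldha. Hk1, Hk2 and Pfkp overlap a gene on the other strand (Hk1os, Gm17034 and Pitrm1) and Pkm overlaps Gm49759 on its own strand, and the sources used here do not say whether counting used strand, so that reads of these pairs could be shared.

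The 250 bases before the RefSeq transcription start (GRCm38.p6) were searched for the core of the HIF binding site, ACGTG or GCGTG, on both strands, since the members include known HIF-1 targets and all cells had been through hypoxia. Of 32851 such windows of mouse genes, 16.6% hold ACGTG, 28.2% GCGTG and 38.6% either. All 10 members matched, with 15 windows in all because some have several starts. Counted by window, as for all genes, 4 of the 15 hold ACGTG and 12 hold ACGTG or GCGTG. Windows of a gene are not independent: the Eno1 windows starting at positions 150236947 and 150236974 overlap and hold the same 2 matches. By gene, Hk2, Pgk1, Pkm and Ldha hold ACGTG in a window, and Eno2 holds neither in its window. The windows of Eno3, the member that rose, and of Pgk1 and Ldha, which did not pass the test, are shown with matches in capitals; Ldha has another window, starting at position 46846832, which holds 1 GCGTG and no ACGTG and is not shown. The windows printed lie at chr11:70656926-70657175, chrX:106186850-106187099 and chr7:46845554-46845803, all on the plus strand.
Eno3: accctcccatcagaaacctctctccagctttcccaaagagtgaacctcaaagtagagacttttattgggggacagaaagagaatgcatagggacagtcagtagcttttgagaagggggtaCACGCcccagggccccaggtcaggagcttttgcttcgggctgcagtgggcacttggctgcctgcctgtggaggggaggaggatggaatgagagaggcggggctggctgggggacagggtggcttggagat
Pgk1: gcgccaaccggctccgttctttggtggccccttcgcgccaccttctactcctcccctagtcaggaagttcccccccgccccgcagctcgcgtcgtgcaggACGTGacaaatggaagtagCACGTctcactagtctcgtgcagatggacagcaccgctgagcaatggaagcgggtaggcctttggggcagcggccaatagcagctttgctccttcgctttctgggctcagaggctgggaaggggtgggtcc
Ldha: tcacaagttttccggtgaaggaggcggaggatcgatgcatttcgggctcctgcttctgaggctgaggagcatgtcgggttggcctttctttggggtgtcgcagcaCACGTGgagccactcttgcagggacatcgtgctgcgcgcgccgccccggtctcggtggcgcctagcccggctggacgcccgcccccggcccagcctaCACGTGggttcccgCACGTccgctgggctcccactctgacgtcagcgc
The window of Eno3 has 1 GCGTG, read on the other strand, that starts 130 bases before the start site, and no ACGTG. Pgk1 has 2 matches of ACGTG. The Ldha window printed has 3 stretches, of which CACGTG at 145 and 48 bases before the start reads as ACGTG on both strands. These are matches of letters and not evidence of binding, and no match says only that the letters are not in this window.

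Counts summed to between 71506487 and 79919893 per sample. Values per sample are given as CPM, the counts of a library scaled to a common size with TMM factors, in which 3 counts are between 0.0377 and 0.0419 CPM; levels of different genes are compared as the deposited FPKM, which divides by gene length. Epithelial markers were high, with a mean of 1180 FPKM for Krt8, and the stem cell marker Olfm4 had a mean of 469 FPKM, while Lgr5 had 1.05 FPKM and the enterocyte gene Fabp2 1910 FPKM, so that RNA of differentiated cells was present beside that of stem cells in all 6 samples. In such bulk samples, fewer cells of a type cannot be told apart from less RNA per cell.

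Per length, the members covered a wide range. Ldha was highest with a mean of 519 FPKM over the 6 samples, followed by Pgk1 (215), Pkm (193) and Eno1 (127 FPKM), then Pfkp (27.2), Hk2 (9.22), Pfkl (7.27), Eno3 (5.26), Hk1 (1.54) and Eno2 (0.129 FPKM). The ranges over samples of neighbours in this order overlapped for Pgk1 and Pkm, Hk2 and Pfkl, Pfkl and Eno3, and Eno3 and Hk1; in the other 5 neighbouring pairs the upper gene exceeded the lower in 6 of 6 samples without overlap. The lengths behind the FPKM were worked out from counts and FPKM, with the summed counts of a sample as its library size. So taken, they exceed the longest coding transcript by a factor of between 1.21 (Hk2) and 3.6 (Pfkp). Another library size would move all these factors alike. The lengths follow the merged exons of all transcripts of a gene, with 5992 against 5379 bases in Eno1, 6650 against 5969 in Hk2 and 14930 against 13401 in Pfkp. With the length of the longest coding transcript in their place Pkm (443) and Eno1 (374) stood above Pgk1 (295 on this scale), and Pfkl above Hk2.

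Of the 10 members, 1 was higher in circEZH2_005 than in vector samples at an adjusted p under 0.05 (Eno3), 0 were lower and 9 did not pass (edgeR's quasi-likelihood test, Benjamini-Hochberg adjustment over all genes tested). Of all genes tested, 3.67% were called, 2.69% higher and 0.986% lower. At an unadjusted p under 0.05 edgeR had 3 members higher (Eno3, Hk1 and Pfkl) and 0 lower. After adjustment DESeq2 called 2 higher (Eno3 and Hk1), limma 1 (Eno3), and each 0 lower. The log2 fold change was above 0 for 7 members and below 0 for 3, with a median of 0.23 beside 0.00 over all genes tested. In 5 members the groups did not overlap (Eno3, Hk1, Pfkl and Pfkp higher, Eno2 lower), beside 30.6% of all genes tested. This is in TMM-scaled CPM; in the deposited FPKM, which is scaled otherwise, it was 4 members (Eno3 and Hk1 higher, Eno2 and Pgk1 lower), beside 30.9% of all genes tested. The plot of members among all genes sets each of them beside the genes of its level.

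**Figure D1:**
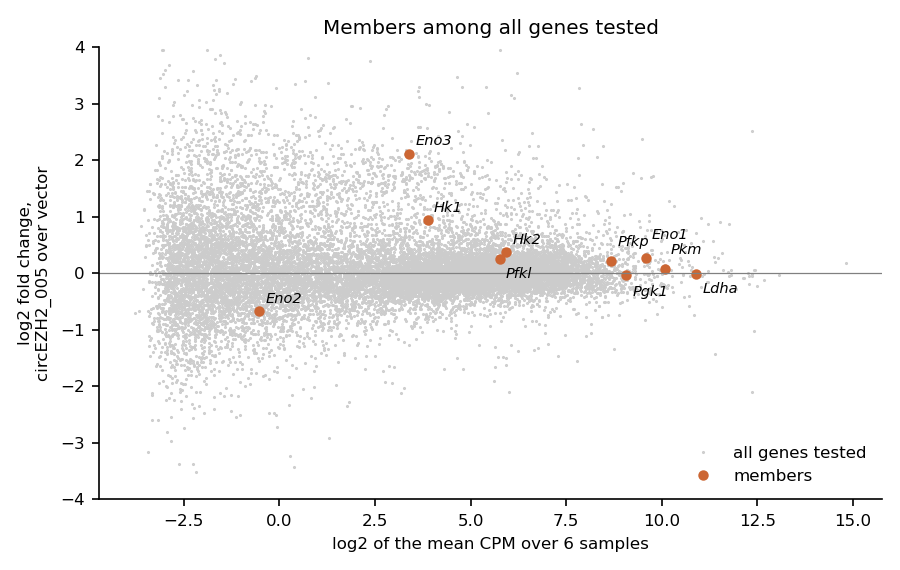
Each grey point is 1 of the 18348 genes tested and each orange point a member; the horizontal axis is the log2 of the mean CPM over 6 samples and the vertical axis the log2 fold change of circEZH2_005 over vector, drawn between -4 and 4, which leaves out 31 genes. Eno3 lies at 2.11 and Hk1 at 0.93, whereas the most abundant members, Ldha and Pkm, lie near 0.

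Eno3, the beta enolase, was at 3.45, 3.88 and 4.46 CPM in vector samples 1 to 3 and at 15.6, 18.9 and 16.3 CPM in circEZH2_005 samples 1 to 3. Every circEZH2_005 sample lay far above every vector sample, and the spread within each group was small. The raw counts behind these values were 250, 290 and 349 with vector and 1241, 1410 and 1171 with circEZH2_005. Means were 3.93 ± 0.505 and 17.0 ± 1.76 CPM (SD, n = 3 each), a 4.31-fold rise (95% interval 3.36 to 5.54) and a log2 fold change of 2.11 (standard error 0.16, edgeR adjusted p = 0.00249). By p-value Eno3 ranked 8 of the 18348 genes tested. In FPKM it was 1.79, 2.08 and 2.35 with vector and 8.34, 9.08 and 7.94 with circEZH2_005. It was the member whose call held in all 12 alternatives that gave an adjusted p-value, from 1.35e-29 (DESeq2) to 0.0250 (edgeR without vector sample 3). The study lists qPCR primers for Eno3, and the gene was chosen with that and earlier results of these data known. Its rank and the 12 alternatives come from the same samples and are not independent of that choice.

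Eno1, the enolase of most tissues, was at 735, 637 and 703 CPM with vector and at 660, 996 and 851 CPM in circEZH2_005 samples. circEZH2_005 samples 2 and 3 were above all vector samples, but sample 1 lay between vector samples 2 and 3. Its log2 fold change was 0.27 (95% interval -0.08 to 0.63, edgeR adjusted p = 0.329), and without circEZH2_005 sample 2 it was 0.13. The counts assigned to Eno1b, the near copy, kept a nearly constant ratio to those of Eno1. The log2 ratio of Eno1b to Eno1 counts was -3.99 ± 0.03 with vector and -4.02 ± 0.04 with circEZH2_005 (SD, n = 3 each; two-sided exact permutation test, p = 0.3). Of the stretches of 100 bases in Eno1b 61.8% occur in Eno1, so the ratio cannot show whether Eno1b itself followed Eno1. The log2 fold change of Eno1b was 0.23 (edgeR adjusted p = 0.365).

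Eno2, the neuronal enolase, had the lowest level of the members, with raw counts of 70, 66 and 56 with vector and 34, 50 and 37 in circEZH2_005 samples. In CPM this is 0.967, 0.883 and 0.715 against 0.428, 0.672 and 0.516. All circEZH2_005 samples were below all vector samples, by a narrow margin between vector sample 3 and circEZH2_005 sample 2. The log2 fold change was -0.67 (95% interval -1.47 to 0.13, edgeR adjusted p = 0.293), so that at counts this low a fall was not shown. Of the 10 neuron and neuroendocrine markers, 0 of the 9 tested passed edgeR's adjustment in either direction (unadjusted, 1 was higher and 1 lower; DESeq2 called 1 higher, Chga), and their summed level was between 201 and 211 CPM with vector and between 189 and 196 CPM with circEZH2_005. The highest of them per length, Chgb, had a mean of 45.3 FPKM and a log2 fold change of -0.23 (edgeR adjusted p = 0.121).

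Within a sample the enolases can be set against each other without any scaling between libraries. For each Eno3 count there were 213, 164 and 158 Eno1 counts with vector and 42.3, 52.5 and 52.0 with circEZH2_005. The log2 ratio of Eno3 to Eno1 counts rose from -7.46 ± 0.24 to -5.61 ± 0.18 (SD, n = 3 each), a difference of 1.86 (standard error 0.17), or 3.63-fold. The groups did not overlap (two-sided exact permutation test, p = 0.1, which is the smallest that 3 samples against 3 allow). Eno3 therefore differed relative to Eno1 by more than the spread between samples, in a design whose p cannot fall under 0.05. With the counts of Eno1 and Eno1b added together, the difference was 1.86 as well.

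Against Eno2 the change was larger still. There were 3.57, 4.39 and 6.23 Eno3 counts for each Eno2 count with vector and 36.5, 28.2 and 31.6 with circEZH2_005. The log2 ratio went from 2.20 ± 0.41 to 5.00 ± 0.19 (SD, n = 3 each), a difference of 2.79 (standard error 0.26; two-sided exact permutation test, p = 0.1). Here Eno3 went up while the few Eno2 counts were fewer, and the log2 ratio of Eno2 to Eno1 counts also differed without overlap, by -0.94 (standard error 0.14; two-sided exact permutation test, p = 0.1).

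Eno1 remained the main enolase in both groups. Eno3 made up 1.4%, 1.8% and 1.9% of the summed FPKM of Eno1, Eno2 and Eno3 with vector and 6.8%, 5.5% and 5.6% with circEZH2_005. The means were 1.72% ± 0.261 and 5.98% ± 0.709 (SD, n = 3 each), 4.26 percentage points apart (two-sided exact permutation test, p = 0.1). Eno1 accounted for 98.1% ± 0.252 and 94.0% ± 0.709, and Eno2 for 0.134% ± 0.0225 and 0.0671% ± 0.00301 (SD, n = 3 each). The size of the share rests on gene length: per base of the longest coding transcript, a measure chosen after seeing the data, Eno3 was 0.734% ± 0.113 of enolase with vector and 2.60% ± 0.322 with circEZH2_005 (SD, n = 3 each), a similar ratio at a lower level. Summed over the 3 genes, enolase was at 126, 113 and 124 FPKM with vector and at 123, 164 and 142 FPKM in circEZH2_005 samples, which overlap (two-sided exact permutation test, p = 0.3).

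**Figure D2:**
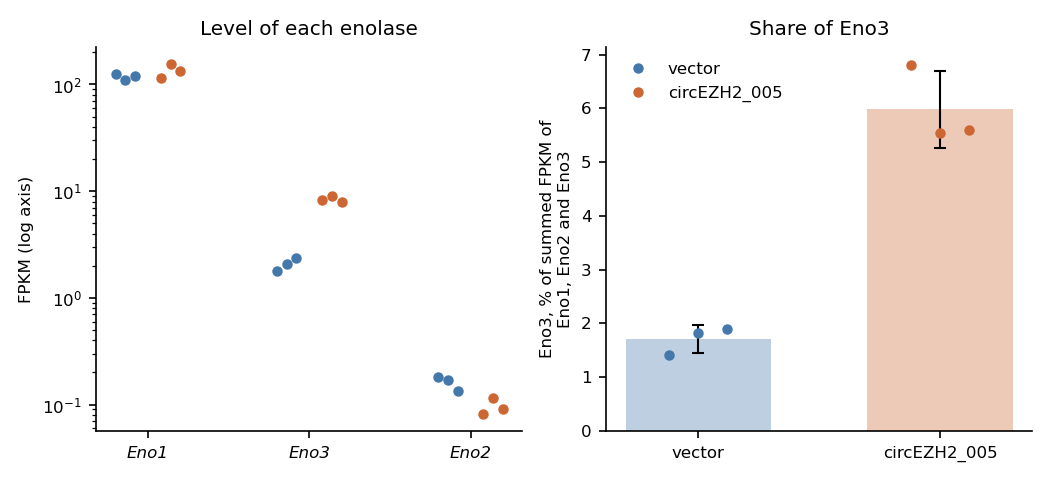
The left panel shows the FPKM of Eno1, Eno3 and Eno2 on a log axis, 1 point for each sample (blue, vector; orange, circEZH2_005), and the right panel the percent of summed enolase FPKM that is Eno3, with bars for means and error bars for SD (n = 3 each). Eno3 is separated between the groups and Eno1 overlaps, and the share of Eno3 moves from 1.72% to 5.98%.

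Hexokinase 1, which binds the outer mitochondrial membrane, was at 8.01, 12.4 and 9.97 CPM with vector and at 22.6, 20.7 and 14.6 CPM with circEZH2_005. All circEZH2_005 samples were above all vector samples, with a gap between 12.4 and 14.6 CPM. The log2 fold change of Hk1 was 0.93 (95% interval 0.43 to 1.43), just outside the threshold with an adjusted p of 0.0574 by edgeR. DESeq2 called it (adjusted p = 6.78e-04), as did edgeR without vector sample 2, at a log2 fold change of 1.10 (adjusted p = 0.0276); in the other 10 alternatives it was not called, up to an adjusted p of 0.189.

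Hexokinase 2, the inducible form, was at 41.8, 65.0 and 53.9 CPM with vector and at 74.4, 74.2 and 59.1 CPM with circEZH2_005. circEZH2_005 samples 1 and 2 were the highest of all, and sample 3 lay below vector sample 2. The log2 fold change of Hk2 was 0.37 (95% interval -0.02 to 0.76, edgeR adjusted p = 0.232). There were 5.22, 5.25 and 5.41 Hk2 counts for each Hk1 count with vector and 3.29, 3.59 and 4.06 with circEZH2_005, without overlap. The log2 ratio of Hk1 to Hk2 counts differed by 0.54 (standard error 0.09; two-sided exact permutation test, p = 0.1). The ratios of Hk1 to Hk2, Pfkl to Pfkp, Eno2 to Eno1 and Eno1b to Eno1 were added after the data were seen.

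The phosphofructokinases, of which Pfkl is the liver type and Pfkp the platelet type, had fold changes close to 1. Pfkl was at 51.1, 47.6 and 50.2 CPM with vector and at 57.1, 54.8 and 64.6 CPM with circEZH2_005. Pfkp was at 384, 371 and 374 CPM with vector and at 417, 504 and 399 CPM with circEZH2_005. In both genes the groups did not overlap in CPM but lay close together, and in FPKM they overlapped (Pfkl, 6.68 to 6.97 against 6.83 to 8.20; Pfkp, 25.9 to 26.1 against 25.2 to 31.3 FPKM). The log2 fold changes were 0.24 for Pfkl (95% interval 0.04 to 0.45, edgeR adjusted p = 0.141) and 0.22 for Pfkp (95% interval -0.02 to 0.47, edgeR adjusted p = 0.251). The log2 ratio of Pfkl to Pfkp counts, -2.92 ± 0.03 with vector and -2.90 ± 0.29 with circEZH2_005 (SD, n = 3 each), overlapped between the groups.

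The abundant enzymes of the later steps overlapped between the groups in CPM. Pgk1, phosphoglycerate kinase, was at 553, 551 and 532 CPM with vector and at 512, 558 and 521 CPM with circEZH2_005. Pkm, pyruvate kinase of most tissues outside the liver, was at 1156, 954 and 1041 CPM with vector and at 1031, 1332 and 970 CPM with circEZH2_005. Ldha, which makes lactate, was at 2032, 1860 and 1904 CPM with vector and at 1706, 2115 and 1885 CPM with circEZH2_005. In Pkm and Ldha, and in Pgk1 by a little, circEZH2_005 sample 2 was the highest of the 6, and neither group stood above the other on this scale. In FPKM Pkm and Ldha overlapped as well, but Pgk1 was at 225, 230 and 220 with vector and at 213, 207 and 197 with circEZH2_005, lower in every circEZH2_005 sample. The log2 fold changes were -0.04 for Pgk1 (95% interval -0.23 to 0.15, adjusted p = 0.814), 0.08 for Pkm (95% interval -0.25 to 0.41, adjusted p = 0.783) and -0.02 for Ldha (95% interval -0.27 to 0.23, adjusted p = 0.926), all by edgeR. Folds outside 0.855 to 1.11 for Pgk1, 0.842 to 1.33 for Pkm and 0.829 to 1.17 for Ldha lie beyond these intervals.

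**Figure D3:**
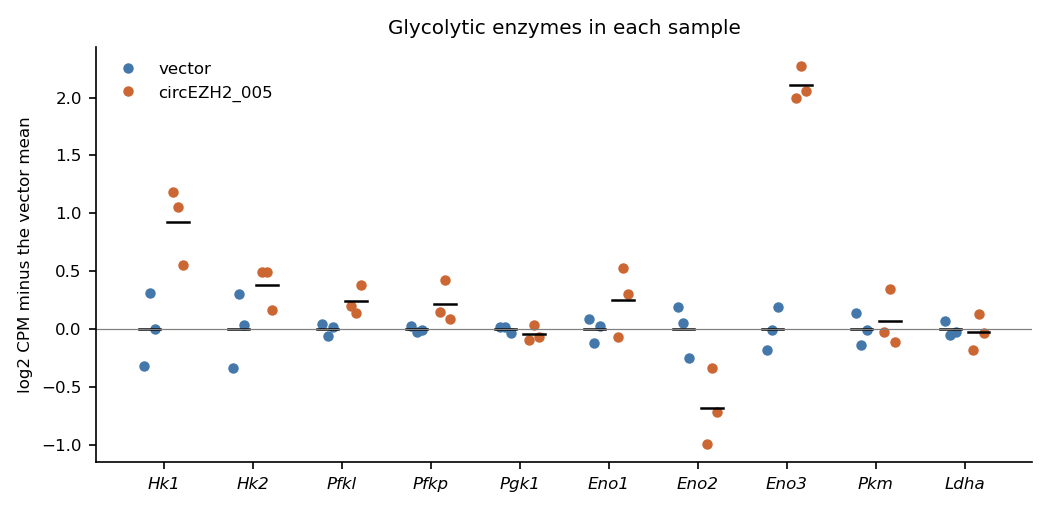
Log2 CPM of each member in each sample minus the mean of the vector samples (blue, vector; orange, circEZH2_005; black bars, means; n = 3 each). All 3 circEZH2_005 samples of Eno3 lie near 2 and those of Hk1 lie above every vector sample, whereas Pgk1, Pkm and Ldha lie around 0.

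The other genes of the pathway, from glucose uptake to pyruvate entry and gluconeogenesis, were 55 genes, of which 53 were listed and 51 tested; 3 were higher, 1 was lower and 47 did not pass (edgeR, adjusted p under 0.05), with a median log2 fold change of 0.01. Of all genes tested, 3.67% were called. The genes called here are a transporter, regulators and an enzyme of D-lactate, and none is an enzyme of the main steps. Slc16a3, which exports lactate from glycolytic cells, was at 23.2, 21.8 and 21.8 CPM with vector and at 35.6, 59.4 and 55.9 CPM with circEZH2_005, a log2 fold change of 1.18 (edgeR adjusted p = 0.0244). Pdk3, a kinase that turns off pyruvate dehydrogenase, rose from between 25.3 and 28.1 to between 38.8 and 49.1 CPM, a log2 fold change of 0.70 (edgeR adjusted p = 0.0231). Pfkfb4, which makes and breaks down the phosphofructokinase activator fructose-2,6-bisphosphate, rose from between 52.6 and 59.3 to between 77.1 and 103 CPM, a log2 fold change of 0.64 (edgeR adjusted p = 0.0362). Ldhd, the mitochondrial D-lactate dehydrogenase, fell from between 6.50 and 7.44 to between 3.09 and 4.14 CPM, a log2 fold change of -0.99 (edgeR adjusted p = 0.0331). In these 4 genes the groups did not overlap. Each lost its call with the replicate number as a block and without vector sample 1, vector sample 3 or circEZH2_005 sample 2. All but Pdk3 also lost it with no filter on low counts and without circEZH2_005 sample 3. Adjusted p-values by edgeR were up to 0.137 for Pfkfb4 and Ldhd, 0.125 for Slc16a3 and 0.122 for Pdk3. Pdk3 and Pfkfb4 also lost their call with limma on log2(FPKM + 0.1).

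Of the other enzymes of the glycolytic steps themselves, 0 of 17 tested passed edgeR's adjustment, beside 3.67% of all genes tested. With so few genes, 0 calls is near that share. Among them 0 had an unadjusted p under 0.05, and their median log2 fold change was 0.02. The highest per length in the roles reported were Hkdc1 (54.7 FPKM, log2 fold change 0.16), Gpi1 (75.0 FPKM, 0.05), Pfkm (2.43 FPKM, 0.02), Tpi1 (240 FPKM, 0.20), Gapdh (12.2 FPKM, 1.03), Pgam1 (132 FPKM, -0.15), Eno1b (22.6 FPKM, 0.23) and Pklr (95.3 FPKM, -0.06). Most of these fold changes were close to 0. Gapdh stood out only through circEZH2_005 sample 2, with 149 CPM against between 37.5 and 46.0 CPM in the other 5 samples, and without that sample its log2 fold change was 0.14; 78.0% of its stretches of 100 bases are shared with 84 other genes, so its value is uncertain. In the remaining roles the highest were the glucose transporter Slc5a1 (364 FPKM, log2 fold change 0.15), the monocarboxylate transporter Slc16a1 (35.1 FPKM, -0.10), the pyruvate dehydrogenase subunit Pdha1 (88.2 FPKM, -0.24) and, in gluconeogenesis, Fbp2 (102 FPKM, -0.15), and 0 of 5 glucose transporters and 0 of 8 gluconeogenesis genes tested passed (edgeR; unadjusted, 1 and 2 were higher). By DESeq2 6 of the other pathway genes were higher and 2 lower, and by limma on log2(FPKM + 1) 3 were higher and 2 lower.

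**Figure D4:**
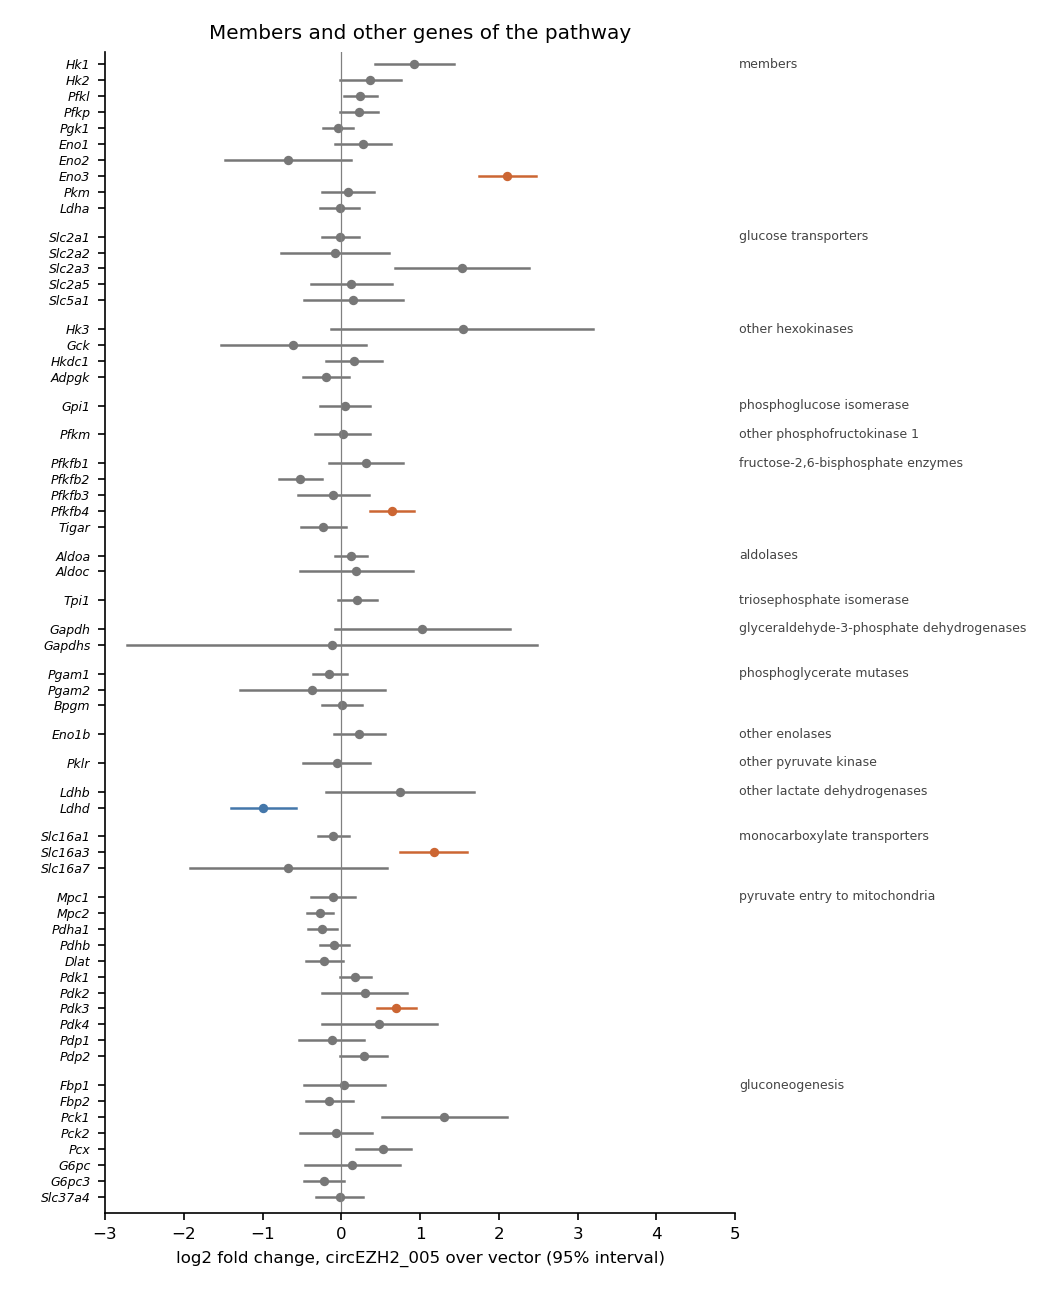
Log2 fold change of circEZH2_005 over vector with its 95% interval (edgeR) for the members and other pathway genes tested, grouped by role as named at the right; orange marks an adjusted p under 0.05 with a rise, blue with a fall, and grey the genes that did not pass. Eno3 is the orange point among the members, and Pfkfb4, Slc16a3, Pdk3 and Ldhd are the coloured ones below.

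Genes outside glycolysis that HIF is known to induce were read beside the members, since they share its control by oxygen. Of 15 tested, 1 was higher (Ankrd37), 1 lower (Ndrg1) and 13 did not pass (edgeR, adjusted p under 0.05), with a median log2 fold change of -0.02. Over all genes tested, edgeR called 2.69% higher and 0.986% lower. At an unadjusted p under 0.05 edgeR had 4 of the hypoxia genes higher and 3 lower. After adjustment DESeq2 called 4 higher (Ankrd37, Bnip3, Egln3 and Vegfa) and 2 lower (Car9 and Ndrg1). Ankrd37 was at 1.71, 2.77 and 2.21 CPM with vector and at 6.01, 5.43 and 7.54 CPM with circEZH2_005, a log2 fold change of 1.50 (edgeR adjusted p = 0.0254). Ndrg1 was at 121, 62.7 and 94.3 CPM with vector and at 28.5, 26.9 and 34.7 CPM with circEZH2_005, a log2 fold change of -1.63 (edgeR adjusted p = 0.0207). The list thus held calls in both directions, and neither call held without vector sample 1, vector sample 3, circEZH2_005 sample 2 or circEZH2_005 sample 3 (adjusted p of up to 0.127 for Ankrd37 and 0.102 for Ndrg1 by edgeR). Ankrd37 also lost its call with the replicate block and with no filter on low counts.

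Markers of other cells differed between the groups beside Eno3 and Hk1. Of 14 skeletal muscle genes, 12 were listed and 9 tested, and 2 were higher and 0 lower (edgeR, adjusted p under 0.05; unadjusted, 3 were higher and 0 lower). Over all genes tested, edgeR called 2.69% higher. The summed level of the muscle genes was between 6.79 and 9.33 CPM with vector and between 18.2 and 34.8 CPM with circEZH2_005. Most of that difference was 1 gene, Acta1: without it the others summed to between 2.98 and 5.03 CPM with vector and between 5.21 and 7.32 CPM with circEZH2_005. It was the gene with the highest level per length, skeletal muscle actin, with counts of 210, 284 and 336 against 1034, 1735 and 2097, a log2 fold change of 2.58 (edgeR adjusted p = 0.0138). The muscle creatine kinase Ckm had counts of 0, 4 and 15 against 52, 32 and 32, and the myosin Myh1 of 0, 0 and 0 against 25, 20 and 18, while Myh4 had 4 counts in 1 sample and 0 elsewhere. Mylpf, a muscle myosin light chain, had counts between 193 and 263 in all 6 samples (log2 fold change 0.05, edgeR adjusted p = 0.906). Per length, Eno3 was between 1.79 and 2.35 FPKM with vector and between 7.94 and 9.08 FPKM with circEZH2_005. Acta1 was near it in both groups, between 1.72 and 2.59 and between 7.88 and 16.1 FPKM. Mylpf was between 2.27 and 2.9 FPKM in all 6 samples. Ckm, Myh1 and Myh4 had at most 0.0556 FPKM in a vector sample and at most 0.203 FPKM in a circEZH2_005 sample. The part of muscle RNA in the rise of Eno3 was not tested.

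Of 12 leukocyte genes, all tested, 1 was higher (Cd74, log2 fold change 1.27, edgeR adjusted p = 0.0181) and 0 were lower; unadjusted, 7 were higher and 0 lower, and DESeq2 called 5 higher (Cd74, Ptprc, Cd8a, Cd52 and Coro1a). Their median log2 fold change was 1.43. For this list and those below, the share over all genes tested was 2.69% called higher and 0.986% lower by edgeR. The leukocyte genes summed to between 727 and 1049 CPM with vector and between 1874 and 2332 CPM with circEZH2_005. Most of this sum was Cd74, at 640, 802 and 612 CPM with vector and at 1316, 1895 and 1748 CPM with circEZH2_005. In 7 of the 12 genes the groups did not overlap, all higher with circEZH2_005, beside 30.6% of all genes tested. In the other 5 they overlapped. Vector sample 2 was the highest of the vector samples in this sum, as it was for Hk1 and Hk2 but not for Eno3. Enterocyte genes summed to between 14306 and 16751 CPM with vector and between 14788 and 29029 CPM with circEZH2_005, with 1 of 9 higher (Apoa4, log2 fold change 0.91, edgeR adjusted p = 0.0279), 6 higher unadjusted and 5 higher by DESeq2. Of the 7 epithelial genes Krt20 and Krt8 were higher, with log2 fold changes of 1.18 and 0.57 (edgeR adjusted p = 0.0207 and 0.0301); 4 were higher unadjusted and 3 by DESeq2. Of the 7 stem cell genes Lgr5 and Smoc2 were lower, with log2 fold changes of -0.88 and -0.81 (edgeR adjusted p = 0.0434 and 0.0203), with 3 lower unadjusted and 3 by DESeq2. The sums of this list overlapped between the groups, but most of each sum was Olfm4. Gene by gene, 3 of the 7 were lower in every circEZH2_005 sample than in every vector sample (Lgr5, Smoc2 and Ascl2) and 4 overlapped, beside 30.6% of all genes tested without overlap. Fibroblast and smooth muscle genes summed to at most 12.3 CPM in any sample, with 0 of 8 called by edgeR and 1 higher at an unadjusted p under 0.05 and by DESeq2 (Tagln); the highest of them per length, Tagln, had a mean of 0.352 FPKM. All 8 marker genes called, Myh1 included, lost their call without vector sample 1 and without vector sample 3, and all but Krt20 without circEZH2_005 sample 2; Cd74, Apoa4, Krt8, Lgr5, Smoc2 and Myh1 also lost it without circEZH2_005 sample 3, and Lgr5 and Myh1 without circEZH2_005 sample 1 (highest adjusted p by edgeR between 0.0802 for Acta1 and 0.166 for Lgr5). Myh1, Apoa4, Krt8 and Lgr5 also lost their call with the replicate block and with no filter on low counts. With limma, Lgr5 lost it on log2(FPKM + 1) and on log2(FPKM + 0.1), and Krt8 on log2(FPKM + 0.1). The study's methods describe a sort for Lgr5-GFP before culture. How far it removed leukocytes and muscle cells was not tested. The part of these cell types in the values of Hk1, Hk2 and Eno3 was not tested.

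**Figure D5:**
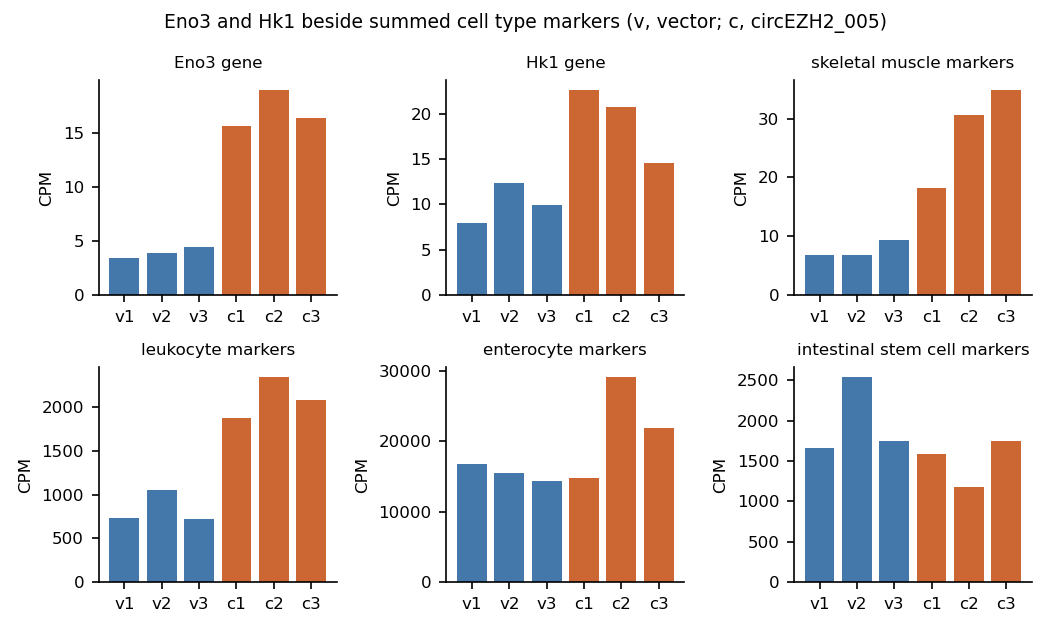
CPM of Eno3 and Hk1 and summed CPM of skeletal muscle, leukocyte, enterocyte and intestinal stem cell markers in each sample (blue, vector samples 1 to 3; orange, circEZH2_005 samples 1 to 3). The muscle and leukocyte sums are higher in every circEZH2_005 sample than in every vector sample, as are Eno3 and Hk1. The muscle difference is mostly that of Acta1, and the leukocyte sum is mostly Cd74. The stem cell sums, which are mostly Olfm4, overlap.

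The genes whose pattern over the 6 samples was most like that of Eno3, by Pearson's correlation of log2 CPM among 11601 other genes whose mean FPKM was at least 1, were Lama3 (r = 0.997), Elmo1 (0.996), Gprc5a (0.996), Ces2a (0.995) and Cacnb3 (0.995). With 2 groups that lie apart such values mostly follow the difference between the groups, and they are a description over samples that share libraries. Of the other members Hk1 was nearest to Eno3 (r = 0.88), followed by Pfkl (0.81), Pfkp (0.76), Hk2 (0.70), Eno1 (0.61), Pkm (0.25), Ldha (-0.09) and Pgk1 (-0.40), and Eno2 ran the other way (-0.82). Eno3 is the reference in these values, so its own place is fixed. Eno2 had few counts, and its fall was not shown (edgeR adjusted p = 0.293).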

How the data were processed

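The authors deposited, for each gene and sample, a read count without normalization and an FPKM value scaled for gene length and library size. The submitters' processing notes name cutadapt 1.9, HISAT2 2.0.4, StringTie 1.3.4d, DESeq2 and mm10, without their order; the annotation and strand setting are not given in the sources used here. Libraries were made with oligo(dT) beads. Groups and replicate numbers came from the labels, the control columns were taken as the vector group because the labels hold no other control, and 0 value columns remained unused. Counts were filtered with filterByExpr, scaled with TMM and compared in R 4.3.3 with edgeR 4.0.16 (quasi-likelihood, no covariates), with Benjamini-Hochberg adjustment over all genes tested; calls needed an adjusted p under 0.05. The standard error of a log2 fold change was taken as its size over the root of F. Ratios within samples were tested by exact two-sided permutation (scipy). FPKM values were not scaled with TMM, and the lengths behind them were the same in all samples within 1% for 93.4% of genes with at least 50 counts in every sample. Where a symbol had several rows, the row with the most counts was used. Alternatives were median-of-ratios factors (RLE), no filter, a replicate block, DESeq2 1.42.0, limma 3.58.1 on log2(FPKM + 1) and log2(FPKM + 0.1) for genes averaging 0.5 FPKM or more, omission of each sample in turn, and a fold change over 2 with an unadjusted p under 0.05. The test was tested on simulated data. Samples with the same replicate number did not deviate together (correlations of -0.136, -0.0234 and 0.0363), so the main test has no block. The members and gene lists were chosen with earlier results of these data known. Genes named are the members, Eno1b, every pathway, hypoxia or marker gene called, the gene of highest mean FPKM in each role or list, the extremes of the hypoxia list, and the 5 genes most like Eno3; Ckm, Myh4, Mylpf and the genes called by DESeq2 alone were named after their values were seen. At these depths 3 samples per group limit the precision of all but genes with few counts, and count floors cover counting error only. The result for 1 gene of the pathway list is not reported here. Sequences are from GENCODE M21 and, for promoters, RefSeq.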

Additional observations from a re-analysis of the deposited data

How the results depend on the processing

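Eno3 was called in all 12 alternatives that gave an adjusted p, and its log2 fold change ranged from 2.02 to 2.21 with a sample omitted and between 1.62 and 2.21 over all 12. The number of members called higher was 1, between 1 and 2 with a sample left out, and 2 with DESeq2; 0 were lower in every alternative, including the replicate block (1 higher, 0 lower). Of 118 values of single members 111 kept direction and side of the threshold, 2 passed it (Hk1, with DESeq2, 0.93, and without vector sample 2, 1.10) and 5 changed sign near 0: Pkm, -0.02 with limma at either pseudocount and -0.07 without circEZH2_005 sample 2 (range with a sample left out, -0.07 to 0.17), and Ldha, 0.01 without vector sample 1 and 0.05 without circEZH2_005 sample 1 (range -0.11 to 0.05). Eno2 was not tested with limma, being under the mean FPKM required.

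The count of all genes called depends strongly on the setting. Against 493 higher and 181 lower, it was 132 and 37 without a filter, 241 and 36 with the replicate block, 1574 and 698 with DESeq2, 310 and 292 with limma on log2(FPKM + 1), 168 higher with log2(FPKM + 0.1), 1142 higher by fold change and unadjusted p, and between 26 and 1098 higher and 2 and 334 lower with a sample left out; the largest counts came without vector sample 2 and the smallest without vector sample 1. Among the other pathway genes, 3 higher and 1 lower became 1 and 0 without a filter, 0 and 0 with the replicate block, 6 and 2 with DESeq2, 2 lower with limma on log2(FPKM + 1), 1 higher with log2(FPKM + 0.1), 0 lower by fold change and unadjusted p, and between 0 and 6 higher and 0 and 2 lower with a sample left out. The cause of these moves was not tested.

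The ratios of Eno3 to Eno1 and to Eno2 differed by 1.86 and 2.79, by the same with the replicate block, which leaves such means as they are, and by between 1.72 and 1.94 and between 2.61 and 3.01 with a sample left out. The rise of 4.26 percentage points in the Eno3 share was 3.67 with Eno1b added, 1.45 for counts, 1.87 with the length of the longest coding transcript, and between 3.85 and 4.48 with a sample left out; by construction these measures divide by other sums and lengths.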
